A study of Drosophila melanogaster with 20 samples.

Results

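The vacuolar proton pump (V-ATPase) of the fruit fly Drosophila melanogaster is encoded by genes whose symbols begin with Vha. All genes with such a symbol were taken, which gave 33 of the 14081 genes in the deposited tables. They fall into 15 subunit types: 13 genes for the V1 sector, 18 for the V0 sector and 2 for accessory subunits. The rule used only the symbol and no measured value.

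The RNA came from whole larvae after 4 days of growth at 25 °C, and was sequenced after removal of ribosomal RNA in 4 groups of 5 libraries. Control larvae had the wDah background, which all groups share. The other groups were the I172G line (genotype DmSAMC.I172G), called a mild mutant in the labels, the P223L line (DmSAMC.P223L), called severe, and the SAMC-null line (DnSAMC.M1fs;M39*), called a severe null. The altered gene, CG4743, encodes the carrier that brings S-adenosylmethionine into mitochondria. Each genotype is represented by 1 line, and the labels used here give no number of larvae in a library. Since nothing in them ties the libraries of a group to separate cultures, the p-values measure spread among these libraries, which may be technical.

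The V-ATPase uses ATP to move protons across membranes. Its V1 sector lies in the cytoplasm and splits ATP, and the turning of its stalk drives a ring of c subunits in the membrane-bound V0 sector, past which protons cross. The pump acidifies lysosomes, endosomes and synaptic vesicles, and in insects it also energises ion transport across the Malpighian tubule (the insect kidney) and acid secretion in the midgut. The fly has several gene copies for many subunits, and copies outside the widely used set are known chiefly from the testis.

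Values are the authors' normalised read counts, scaled together over all 20 libraries, and they sum to between 22092106 and 36610400 per library. The severe lines have the smaller sums, on average 25557300 in P223L and 22373600 in SAMC-null against 34015300 in control. CG4743 ranged from 93.5 to 149 in control, 144 to 199 in I172G, 184 to 249 in P223L and 90.4 to 121 in SAMC-null, so its RNA level does not mark the null line apart from control. Control replicate 4 stands apart from the other controls in genes of the testis. Its testis marker sum is 6591, against a control median of 12791. In the test given below, 42.4% of all genes were called lower in P223L and 43.5% in SAMC-null. Of 8 fat body markers 7 fell and 1 rose in each severe line, and of 8 muscle markers all 8 fell. Only 3 of the fat body markers could be tested between the severe lines. The others reached the level for testing against control largely through the control libraries, so their calls are no support.

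In control larvae the pump genes spanned more than 3 orders of magnitude in level per kilobase of exon. Vha16-1, a copy of the ring subunit c, stood highest at 29183 normalised counts per kb and held 31.3% of the summed counts of all members. Next came Vha13 (subunit G, in the stalk that holds V1 in place) at 12297 per kb, Vha68-2 (subunit A, which carries the catalytic site) at 9805, VhaAC45 (an accessory subunit) at 9391, Vha26 (subunit E, also in the outer stalk) at 8570 and Vha55 (subunit B, the partner of A in the ATP-splitting head) at 7536. Among the copies of each subunit type with more than 1 gene, 1 copy stood above the rest. Vha68-2 made up 95.9 ± 0.571% (SD, n = 5) of the subunit A level per kb, Vha16-1 99.4 ± 0.190% of subunit c and Vha14-1 99.4 ± 0.197% of subunit F. Subunit a, the V0 subunit that directs the pump to particular membranes, was the most evenly divided. Vha100-2 held 53.9 ± 1.07% of its level in control, Vha100-5 25.5 ± 0.605%, Vha100-1 10.4 ± 0.838% and Vha100-4 9.64 ± 0.636%.

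A mean over all 20 libraries of at least 500 normalised counts divided the members into 20 abundant genes and 13 low copies. The gene just under this level was VhaM9.7-c at 278 and the gene just over it Vha36-3 at 562. Every subunit type had at least 1 abundant gene. The SD within control was 1.92 to 10.2% of the mean among abundant members and 12.7 to 85.1% among low copies.

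**Figure D1:**
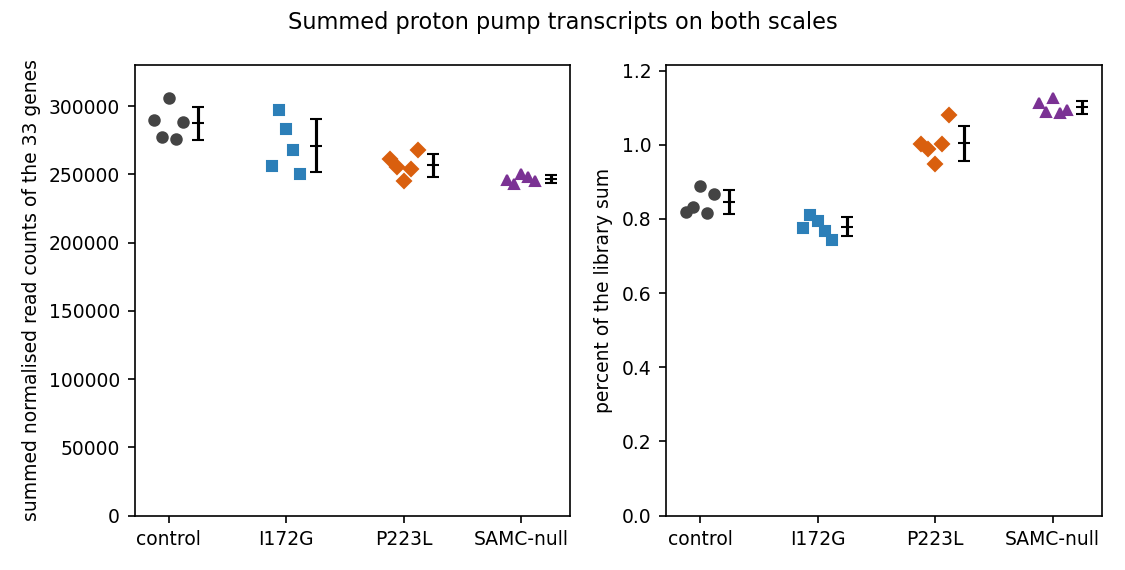
Summed level of the 33 pump genes per library (left, normalised read counts; right, percent of the library's total normalised counts) in the 4 groups; each point is 1 library, and the line beside them is the mean with its SD. In counts the severe lines lie lowest, at 89.3% (P223L) and 85.8% (SAMC-null) of control, while as a share of the library they lie highest, at 1.00% and 1.10% against 0.845% in control.

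The summed level of the pump genes was lower in the severe lines on the deposited scale and higher as a share of each library. The sums were 287331 ± 12114 normalised counts in control (SD, n = 5), 270855 ± 19359 in I172G, 256545 ± 8511 in P223L, and SAMC-null stood at 246477 ± 2981. The ranges of control and of both severe lines did not overlap, since control libraries lay between 275723 and 305893 and the highest severe library reached 267762. As a share of all counts in the library the same genes held 0.845 ± 0.0326% in control, 0.779 ± 0.0261% in I172G, 1.00 ± 0.0476% in P223L, and SAMC-null stood at 1.10 ± 0.0174%. Setting all libraries to an equal sum raised the median log2 fold change of all genes by 0.41 in P223L and by 0.60 in SAMC-null, and lowered it by 0.03 in I172G. Changes below are given on the deposited scale, where the median of all tested genes is near 0 in each comparison, and the genes whose direction depends on this scale are named. In bulk RNA, fewer cells of a type and less RNA per cell cannot be told apart.

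In P223L against control, 24 of the 29 members tested passed the threshold (limma on log2 of the value plus 1, adjusted p under 0.05 over all genes), 4 higher and 20 lower. Among all 12208 genes tested the share called was 78.7%, with 36.3% higher and 42.4% lower. In SAMC-null 27 of 29 passed, 5 higher and 22 lower, against 81.7% of 12252 genes, 38.2% higher and 43.5% lower. The counts called in these lines are read against a background that is itself most of the genes. With equal sums the split turned to 15 higher and 9 lower in P223L and 19 higher and 7 lower in SAMC-null. Over all genes on that scale, 6673 of 12208 were called higher and 3509 lower in P223L. In SAMC-null 7420 of 12252 were called higher and 3296 lower. Among the 20 abundant members the median log2 fold change was -0.21 in P223L and -0.30 in SAMC-null, beside -0.06 over all genes in each. A change of at least 2-fold with a call was seen in 8 of the 29 members in each severe line, all low copies and 5 of them tested only through their control level, against 36.8% of all genes in P223L and 40.5% in SAMC-null. With equal sums the abundant members Vha68-1 and Vha36-3 rose by more than 2-fold in SAMC-null, both with a call. On the deposited scale none of the abundant members changed by 2-fold or more in any of the 5 comparisons. Libraries did not overlap with control for 3 higher and 18 lower members in P223L, beside 68.2% of all genes (31% higher, 37.2% lower). In SAMC-null this held for 4 higher and 21 lower members, beside 71.9% of all genes (33.3% higher, 38.6% lower). The 5 low copies tested only through control are among the 20 and 22 members called lower. They are also among the 18 and 21 lower ones without overlap. These 5 had to be lower, so their part in the counts is no support. The comparisons of the 3 lines with control share the 5 control libraries.

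**Figure D2:**
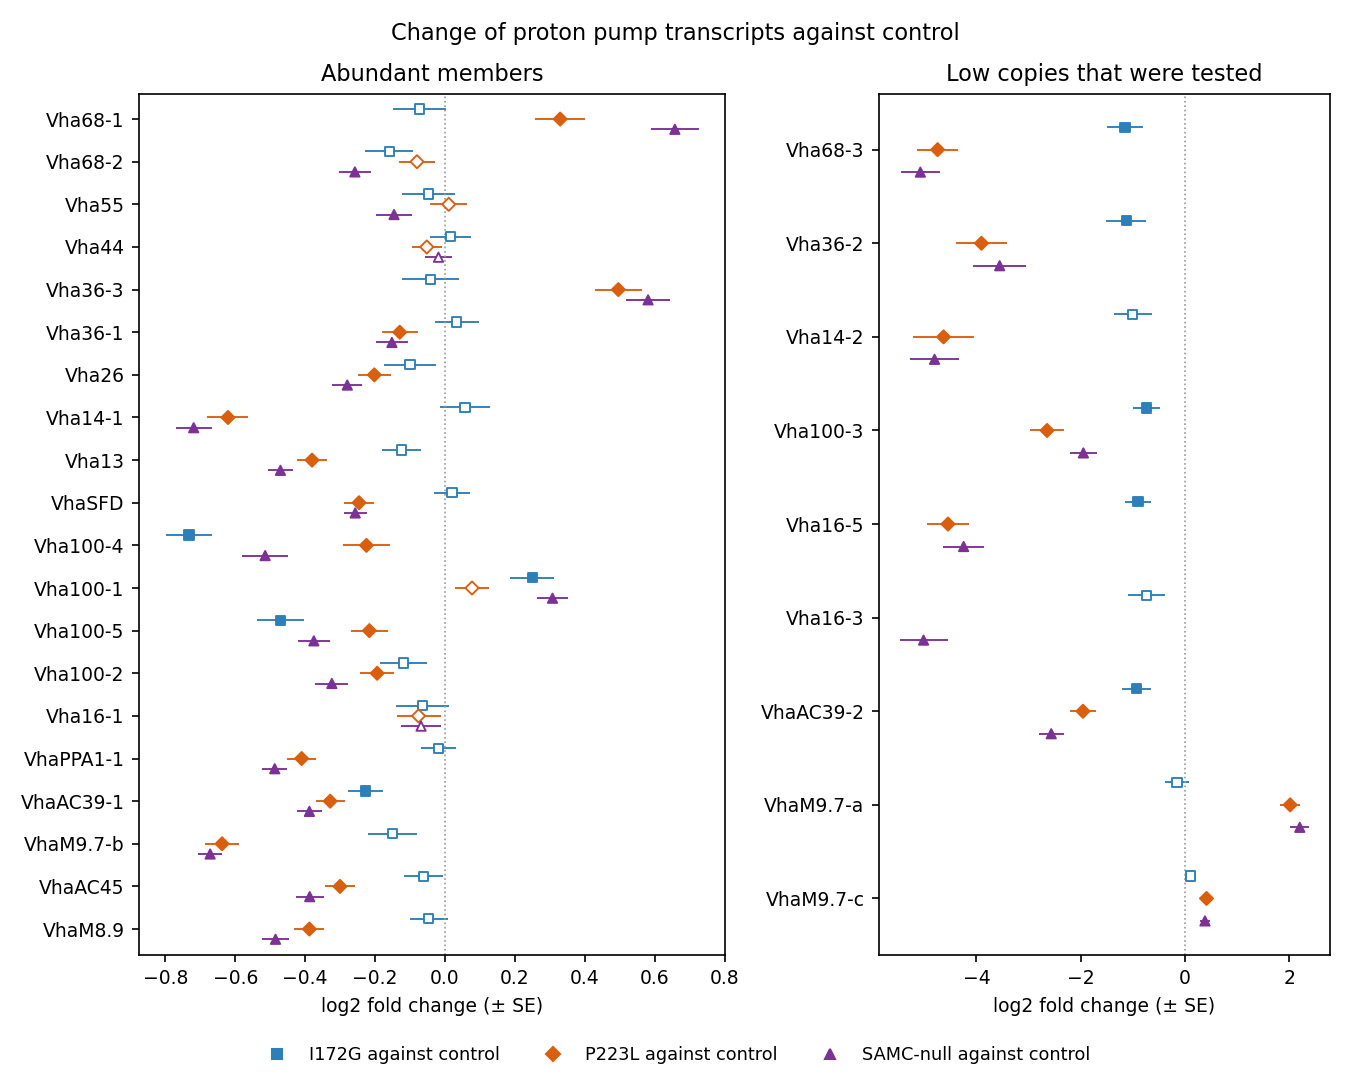
Log2 fold change against control (x axis, with SE lines) of the members tested, abundant genes on the left and low copies on the right, each panel with its own scale; filled symbols passed the test, open ones did not, and Vha16-3 has no P223L point because all its libraries are at 0. In the severe lines Vha14-2, Vha16-3, Vha16-5, Vha36-2 and Vha68-3 were tested only through their control level. Their symbols there had to lie below 0 and are no support. Most abundant members lie slightly below 0 in the severe lines, 16 in P223L and 17 in SAMC-null, a sign that turns for 14 and 15 of these (called ones 11 and 13) when libraries are set to equal sums, while Vha68-1, Vha36-3, VhaM9.7-a and VhaM9.7-c lie above 0 in both severe lines on either scale.

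In the V1 head, the minor abundant copy of subunit A rose, while on the deposited scale the main copy did not. Vha68-1 (2L:13000770-13004107, BDGP 6.54) had 957, 1032, 865, 794 and 973 normalised counts in the control libraries and 829, 928, 848, 886 and 886 in I172G. It had 1205, 1114, 1089.6, 1168 and 1210.1 in P223L, and 1470.2, 1476, 1372, 1449 and 1493 in SAMC-null. The libraries of the severe lines all lay above those of control and I172G, and the SAMC-null libraries all above those of P223L. The log2 fold change was 0.33 ± 0.07 (SE) in P223L (adjusted p = 0.00102) and 0.66 ± 0.07 in SAMC-null (adjusted p = 1.56e-06), and P223L was lower than SAMC-null by a log2 difference of -0.33 ± 0.04 (adjusted p = 1.06e-05). The main copy Vha68-2 had a mean of 27053 ± 1529 in control, 25567 ± 786 in P223L and 22598 ± 331 in SAMC-null. Its value did not pass the test in P223L, and in SAMC-null it fell by 0.26 on the log2 scale (adjusted p = 0.000221), a direction that equal sums reverse. The share of Vha68-1 in the subunit A level per kb was 3.38 ± 0.366% in control and 6.21 ± 0.256% in SAMC-null. These ratios within a subunit do not depend on the scaling of a library.

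Subunit D, part of the central rotating stalk, showed the same division between a main and a minor copy. Vha36-3 (X:2579091-2580560) had 513, 419.9, 462, 438 and 473 normalised counts in control and 410.4, 489, 460.2, 481 and 402 in I172G. It had 681, 685, 652, 621 and 610.0 in P223L, and 720.2, 673, 713, 693 and 645 in SAMC-null. Every library of the severe lines was above every control and I172G library, and the severe lines overlapped each other. The log2 fold changes were 0.50 ± 0.07 in P223L (adjusted p = 2.11e-05) and 0.58 ± 0.06 in SAMC-null (adjusted p = 2.73e-06). The main copy Vha36-1 fell by 0.13 in P223L and by 0.15 in SAMC-null, with overlapping libraries and with the direction reversed under equal sums. The P223L call of Vha36-1 was lost without any 1 of 6 libraries (control replicates 3, 4 or 5, P223L replicates 2, 3 or 4), with adjusted p from 0.0554 to 0.0942. The share of Vha36-3 in the subunit D level was 6.42 ± 0.568% in control, 6.13 ± 0.448% in I172G, 9.60 ± 0.626% in P223L, and SAMC-null stood at 10.3 ± 0.498%.

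Subunit F, the other part of the central stalk, gave the largest decrease among abundant V1 genes in both severe lines. Vha14-1 (2R:15679426-15680084) had 3262, 3125, 3264, 3747 and 3329.9 normalised counts in control and 3299, 3912, 3489, 3617 and 3111 in I172G. It had 2371, 2225, 2049.7, 2056 and 2171 in P223L, and 2112, 2024, 2077, 1925 and 2011 in SAMC-null. All libraries of the severe lines were below all control and I172G libraries. The change on the log2 scale was -0.62 ± 0.06 in P223L (adjusted p = 7.16e-07) and -0.72 ± 0.05 in SAMC-null (adjusted p = 4.84e-08). With libraries set to equal sums it remained lower and called in P223L and was lower but not called in SAMC-null (adjusted p = 0.0772).

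Among the other abundant V1 genes, Vha13 fell by 0.38 in P223L and 0.47 in SAMC-null, VhaSFD (subunit H, which in yeast holds back ATP splitting in the detached sector) by 0.25 and 0.26, and Vha26 by 0.20 and 0.28. The control libraries of these 3 genes did not overlap with either severe line. All 3 directions reverse with equal sums, for Vha13 in P223L to 0.032 without a call. Vha55 had a mean of 20996 ± 1492 in control and 21112 ± 413 in P223L, which did not pass the test. In SAMC-null it fell by 0.15 (adjusted p = 0.0203), again reversed by equal sums. Vha44 (subunit C, which links the sectors) did not pass the test in any line on the deposited scale, with means of 8659 ± 291, 8771 ± 676, 8352 ± 320.3 and 8546 ± 257 in control, I172G, P223L and SAMC-null. With equal sums it was called higher in both severe lines. Its exons overlap those of Hmgs on the other strand, and whether counting used the strand is not given in the sources used here.

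**Figure D3:**
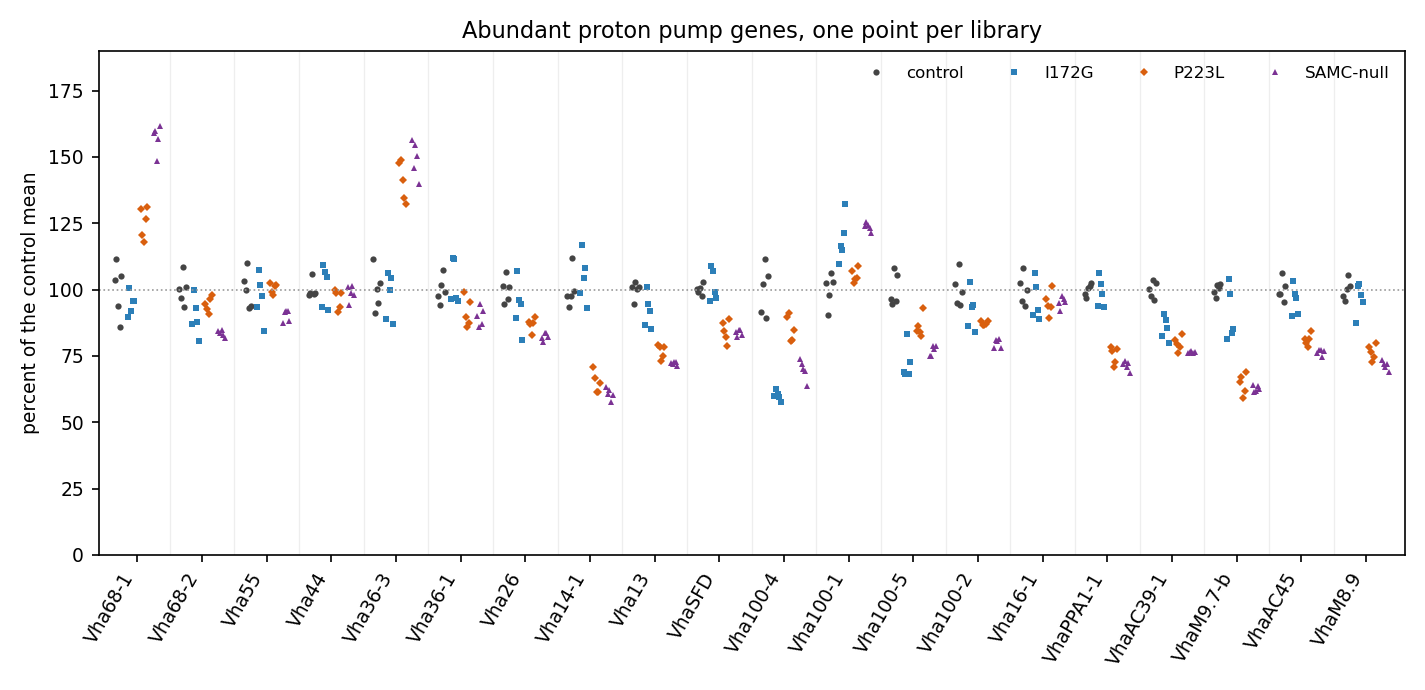
Levels of the 20 abundant members per library (y axis, normalised read count as percent of the gene's control mean, from 0), with 1 point per library and the 4 groups side by side; the dotted line is the control mean. Vha68-1 and Vha36-3 lie above control in both severe lines and Vha14-1 and VhaM9.7-b below, Vha100-4 and Vha100-5 are lowest in I172G, and the lower levels of the severe lines, other than those of Vha14-1 and VhaM9.7-b, reverse when libraries are set to equal sums. Some of the reversed values are near 0 and not called.

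In the V0 sector, the main ring gene did not pass the test in any line on the deposited scale, while several of the genes around the ring did. Vha16-1 had means of 89795 ± 5056 in control, 86002 ± 6815 in I172G, 85169.8 ± 4016 in P223L, and SAMC-null stood at 85534 ± 1957. With equal sums it was called higher in both severe lines. Its share of all member counts went from 31.3% in control to 34.7% in SAMC-null. VhaPPA1-1 (subunit c double prime, a ring subunit of another kind) fell by 0.41 in P223L and 0.49 in SAMC-null, and VhaAC39-1 (subunit d, which couples the stalk to the ring) by 0.33 and 0.39. Both had no overlap with control in either severe line, and both directions reverse under equal sums. In P223L the reversed values, 0.0021 for VhaPPA1-1 and 0.084 for VhaAC39-1, were not called.

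Subunit e, a small membrane protein of V0, showed the widest exchange between copies. VhaM9.7-b (3L:21539862-21541215), the main copy, had 4579.9, 4464, 4688, 4636 and 4714 normalised counts in control and 3762, 4808, 4541, 3854 and 3937 in I172G. It had 3012, 3089, 2725, 2853 and 3175 in P223L, and 2961, 2833, 2860.2, 2943 and 2888 in SAMC-null. The severe libraries lay below all others, with log2 fold changes of -0.64 ± 0.05 in P223L (adjusted p = 7.83e-08) and -0.67 ± 0.03 in SAMC-null (adjusted p = 1.9e-09). Equal sums kept the first of these calls and left the second lower but not called (adjusted p = 0.111). VhaM9.7-a (3L:4262705-4263464), a low copy, had 27.1, 37.6, 29.5, 18.8 and 38.4 in control and 30.5, 32, 23.7, 21.6 and 25 in I172G. It had 132, 117, 124, 124 and 113 in P223L, and 141, 139, 149.9, 135 and 129 in SAMC-null. The severe libraries lay far above the others, with no overlap. The increase was 4.04-fold in P223L (log2 2.02 ± 0.19, adjusted p = 5.98e-07) and 4.59-fold in SAMC-null (log2 2.20 ± 0.18, adjusted p = 1.98e-07), and VhaM9.7-a was the only member called higher by the authors' deposited table, whose test asks for more than a 2-fold change. VhaM9.7-c rose by 0.41 ± 0.10 and 0.38 ± 0.10 on the log2 scale, with overlapping libraries in both severe lines. In level per kb, VhaM9.7-b went from 91.5 ± 0.942% of subunit e in control to 81.0 ± 1.31% in SAMC-null, VhaM9.7-a from 1.03 ± 0.280% to 6.64 ± 0.338% and VhaM9.7-c from 6.71 ± 0.740% to 12.3 ± 1.12%.

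**Figure D4:**
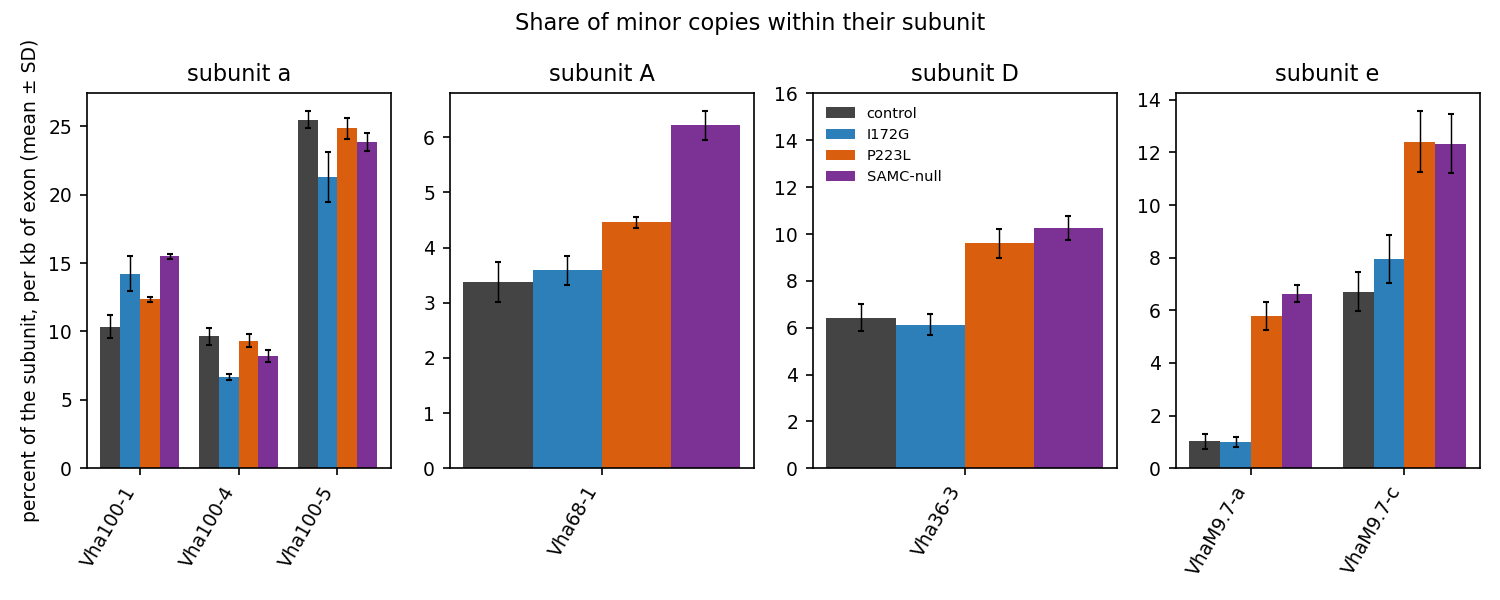
Share of minor gene copies in the summed level per kb of their subunit (y axis, percent, each panel with its own scale from 0); bars are means of 5 libraries and lines their SD. VhaM9.7-a and VhaM9.7-c of subunit e, Vha68-1 of subunit A and Vha36-3 of subunit D hold larger shares in both severe lines than in control, and Vha100-1 of subunit a is largest in SAMC-null (15.5%) and I172G (14.2%) against 10.4% in control.

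The copies of subunit a differed between lines in another order, with I172G farther from control than P223L on the deposited scale for Vha100-1, Vha100-4 and Vha100-5. For Vha100-1 this order turns under equal sums. Vha100-1 (3R:29131193-29137980), known as the form of neurons and their synaptic vesicles, had 3351, 2961, 3209.6, 3484 and 3369 normalised counts in control and 3592, 3818, 3766, 3971 and 4332 in I172G. It had 3503, 3353, 3401, 3422 and 3572 in P223L, and 4054, 4108, 4071, 4031 and 3969 in SAMC-null. All I172G and SAMC-null libraries lay above all control libraries, whereas the P223L libraries overlapped them. Against control the log2 fold change was 0.25 ± 0.06 in I172G (adjusted p = 0.0134), 0.31 ± 0.05 in SAMC-null (adjusted p = 4.19e-05) and 0.08 in P223L, which did not pass. P223L was lower than SAMC-null by a difference of -0.23 ± 0.03 (adjusted p = 1.32e-05). With equal sums I172G was above control by 0.22, P223L by 0.49 and SAMC-null by 0.91, all called, and I172G was lower than P223L by a difference of -0.27 (adjusted p = 0.000883). On the deposited scale 38.2% of all genes were called higher for SAMC-null, 36.3% for P223L and 14.6% for I172G. Of 10 neuron markers, 1 rose in I172G, and 9 rose in each severe line. Their summed level was 8946 to 10559 in control, 9367 to 10292 in I172G, 23995 to 28973 in P223L and 27516 to 29377 in SAMC-null, with no marker at 0, and their part in the level of Vha100-1 was not tested. Exons of Vha100-1 overlap those of Alg13 on the other strand.

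Vha100-4 (3R:18386841-18389805), known from the acid-secreting copper cells of the midgut, was the abundant member with the largest decrease in I172G. It had 2324, 2588, 2829.9, 2265 and 2669 normalised counts in control and 1514, 1581, 1542, 1505 and 1460.1 in I172G. It had 2274, 2307, 2042, 2050.2 and 2149 in P223L, and 1875, 1823, 1781, 1758 and 1616 in SAMC-null. The I172G libraries were below those of every other group, those of SAMC-null lay between I172G and P223L without overlap, and P223L overlapped control. The log2 fold change was -0.73 ± 0.07 in I172G (adjusted p = 4.76e-05), -0.22 ± 0.07 in P223L (adjusted p = 0.00835) and -0.51 ± 0.07 in SAMC-null (adjusted p = 1.24e-05). The last 2 of these reverse under equal sums, in SAMC-null to 0.089 without a call, and the I172G value does not. I172G was lower than P223L directly by a difference of -0.51 ± 0.05 (adjusted p = 5.18e-07). Against control, 43.5% of all genes were called lower for SAMC-null and 38.2% higher. These shares were 42.4% and 36.3% for P223L, and 17.6% were called lower for I172G. Of 15 midgut markers, 11 fell in I172G and in P223L and 10 in SAMC-null, while 4 rose in each severe line. Their sums were 420112 to 523883 in control, 221799 to 293535 in I172G, 112489 to 138959 in P223L and 94379 to 99149 in SAMC-null, with none at 0. Their part in the level of Vha100-4 was not tested. Exons of Vha100-4 overlap those of cona on the other strand.

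Vha100-5 followed a similar order. It had means of 7169 ± 445 in control, 5179 ± 463 in I172G, 6167 ± 296 in P223L, and SAMC-null stood at 5520.1 ± 141. Its log2 fold change was -0.47 ± 0.07 in I172G (adjusted p = 0.000821), -0.22 ± 0.05 in P223L and -0.38 ± 0.05 in SAMC-null, and again equal sums reverse the direction in the severe lines alone. In each line no library overlapped control. Vha100-2, the main copy, had means of 16755 ± 1056, 15442 ± 1241, 14623 ± 120.5 and 13368 ± 261 in control, I172G, P223L and SAMC-null. It did not pass in I172G and fell by 0.19 in P223L and 0.32 in SAMC-null, both reversed by equal sums. Exons of Vha100-5 overlap a noncoding gene, asRNA:CR44144, on the other strand.

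The accessory subunits fell in both severe lines on the deposited scale, with a direction that equal sums reverse. In P223L the reversed values were not called, at 0.11 for VhaAC45 and 0.024 for VhaM8.9. VhaAC45 fell by 0.30 in P223L and 0.39 in SAMC-null. VhaM8.9, named ATP6AP2 in the annotation and needed to assemble the pump in other animals, fell by 0.39 and 0.48. Neither passed the test in I172G, where their means were 18122 ± 1060.2 and 9455 ± 573 against 18905 ± 797 and 9759.6 ± 359 in control.

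Most low copies of the pump were at or near 0 in the severe lines, while VhaM9.7-a and VhaM9.7-c rose as given above and Vha100-3 and VhaAC39-2 stayed above 10 normalised counts in every severe library. The number of low copies with a mean under 10 normalised counts was 1 in control, 4 in I172G and 9 in each severe line. Of the 13, 4 (Vha16-2, Vha16-4, VhaM9.7-d and VhaPPA1-2) had too few libraries at 10 or more to be tested against control. Vha100-3, Vha14-2, Vha16-3, Vha16-5, Vha36-2, Vha68-3 and VhaAC39-2 were tested and fell in both severe lines. For Vha14-2, Vha16-3, Vha16-5, Vha36-2 and Vha68-3 the control libraries met the level needed for testing and at most 1 library of a severe line did, so these calls had to be decreases and their count is no support.

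**Figure D5:**
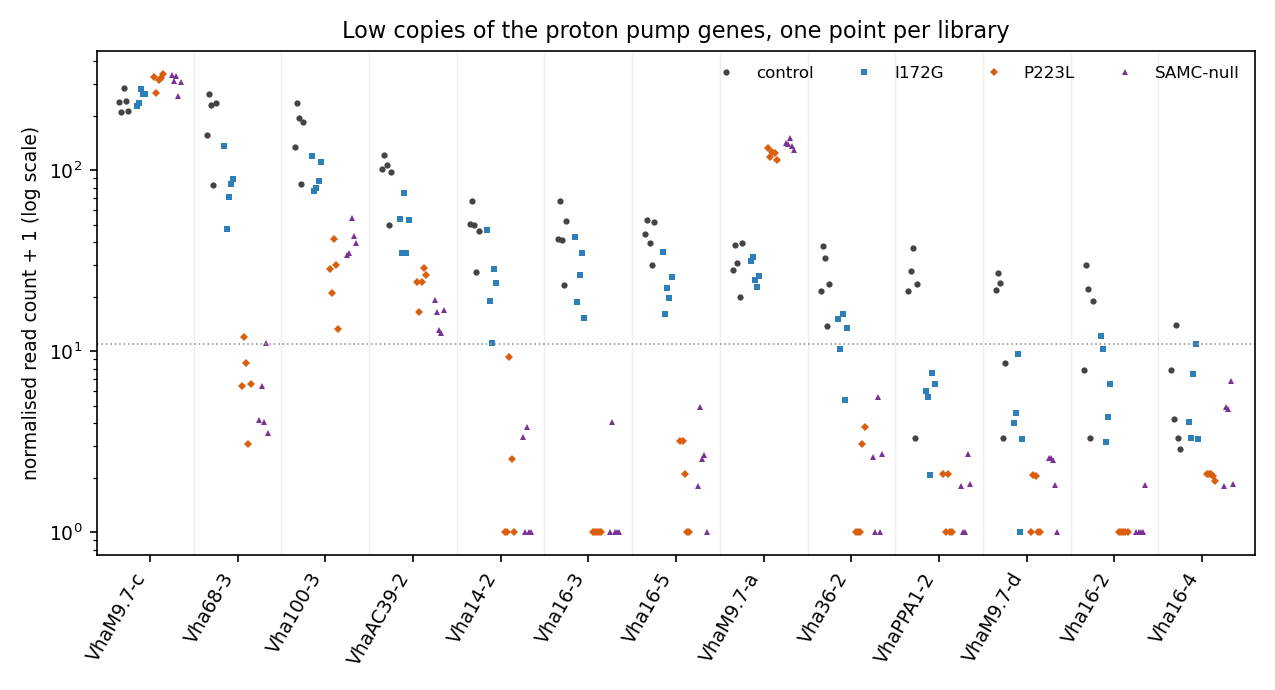
Levels of the 13 low copies per library (y axis, normalised read count plus 1 on a log scale), with 1 point per library and the 4 groups side by side; the dotted line marks a count of 10. In P223L and SAMC-null 9 of the 13 have means under 10, Vha16-2 and Vha16-3 are at 0 in every P223L library, and VhaM9.7-a and VhaM9.7-c are higher than in control, on the deposited scale and with libraries set to equal sums.

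Vha68-3, a subunit A copy that starts 178 bases beyond the end of Vha68-2 on the same strand, had the highest control level per kb among the low copies that fell, at 78.7. It had 156, 262, 228, 82.1 and 233 normalised counts in control and 134, 46.3, 70.2, 82.5 and 88.2 in I172G. It had 5.45, 11, 7.56, 2.05 and 5.62 in P223L, and 3.17, 5.4, 3.06, 10.1 and 2.54 in SAMC-null. The severe libraries were below all others, and I172G overlapped control. Since it reached the level for testing through the control libraries, its fold change and test are not given.

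Vha16-3, a ring subunit copy, had 40.6, 66.8, 40.2, 22.1 and 51.7 normalised counts in control and 41.5, 17.6, 25.2, 33.8 and 14.3 in I172G. It was listed at 0 in all 5 P223L libraries, so no fold change is given, and in SAMC-null it was at 0 in 4 libraries and at 3.04 in the other. Vha16-2, which lies 985 bases further along 3L, was listed at 0 in all P223L libraries too and reached 6.87, 28.8, 21.2, 2.31 and 17.9 in control. The other copies of this ring subunit, Vha16-5 and Vha16-4, had means of 42.8 ± 9.56 and 5.45 ± 4.64 in control, and of 1.09 ± 1.09 and 1.05 ± 0.0729 in P223L. In SAMC-null these were 1.58 ± 1.45 and 3.02 ± 2.17.

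The other low copies were also at lower means in the severe lines than in control. Vha14-2 (subunit F) went from 47.3 ± 14.2 in control to 1.95 ± 3.57 in P223L and 1.04 ± 1.43 in SAMC-null. Vha36-2 (subunit D) went from 25 ± 9.63 to 0.973 ± 1.36 and 1.58 ± 1.88. VhaM9.7-d and VhaPPA1-2 had means of 15.9 ± 10.3 and 21.7 ± 12.4 in control and stayed under 2 in every severe library. Vha100-3 had 165 ± 58.5 in control, 25.9 ± 10.7 in P223L and 40.2 ± 8.31 in SAMC-null, and VhaAC39-2 had 94.3 ± 27.2, 22.9 ± 4.61 and 14.6 ± 2.75. Their control and severe libraries did not overlap.

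The summed level of the testis markers was also lower in the severe lines. Of 27 markers, 22 fell in I172G, where 17.6% of all genes were called lower. In each severe line 25 fell, beside 42.4% of all genes called lower for P223L and 43.5% for SAMC-null. Only 8 of the 27 could be tested between the severe lines. The others reached the level for testing a severe line against control largely through the control libraries, so their calls there are no support. Sums over all 27 markers ranged from 6591 to 16441 in control, 4667 to 8137 in I172G, 2235 to 2546 in P223L and 3012 to 3758 in SAMC-null. A total of 7 markers were at 0 in all P223L libraries, among them Mst84Da, Mst84Db and ProtB, and 11 in SAMC-null. Their part in the levels of the low copies was not tested.

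In I172G against control, 9 of the 29 members tested passed, 1 higher (Vha100-1) and 8 lower, where 32.2% of the 12253 genes tested were called, 14.6% higher and 17.6% lower. Among the 20 abundant members 4 passed. Beside Vha100-1, Vha100-4 and Vha100-5 this was VhaAC39-1, which fell by 0.23 ± 0.05 on the log2 scale (adjusted p = 0.00756). The libraries of these 4 genes did not overlap with control, which holds for 18.1% of all genes tested (10.1% higher, 8% lower). A called change of at least 2-fold was found for 2 members, Vha36-2 and Vha68-3, beside 7.45% of all genes. With 1 library left out, the call of Vha36-2 was lost in 7 fits and that of Vha68-3 in 5. Only 3 I172G libraries of Vha36-2 reached 10. The 16 abundant members not called had log2 fold changes between -0.16 and 0.06. The 5 low copies called (Vha100-3, Vha16-5, Vha36-2, Vha68-3 and VhaAC39-2) had log2 fold changes of -0.74 to -1.15 and adjusted p from 0.0211 to 0.046, with libraries that overlapped control in each case. Control replicate 4 was the lowest control library for all 5. Without it, 9 low copies were called lower, beside 2966 of 12346 genes. Leaving out a library also eased the filter, so Vha16-2 and VhaPPA1-2 could be tested there. At most 1 I172G library of each reached 10, so they had to be lower and are no support. Without control replicate 2 or 5 the count was 0 by limma, with 6 at an unadjusted p under 0.05 in each case. Over all genes 1354 of 12289 and 1427 of 12309 were then lower.

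P223L and SAMC-null were compared directly, since the labels call both severe. Of 24 members tested 12 passed on the deposited scale, 9 higher in P223L and 3 lower. With equal sums 16 were lower and 0 higher by limma, also 0 at an unadjusted p under 0.05. Over all 11168 genes, 5803 were called lower and 1170 higher with equal sums. On the deposited scale the count stood beside 47.4% of all genes, 22.4% higher and 25.1% lower. Libraries did not overlap for 7 of the higher and 2 of the lower members, beside 33.9% of all genes (16.4% higher, 17.5% lower), and 4.41% of all genes but no member had a called 2-fold change by limma. Vha100-1 and Vha68-1 were lower in P223L, as given above, and so was Vha100-3 with a difference of -0.70 ± 0.27 (adjusted p = 0.0433), a call lost without any 1 of 6 libraries (SAMC-null replicates 2, 3, 4 or 5, P223L replicates 2 or 5). The largest difference in the other direction among abundant members was Vha100-4 at 0.29 ± 0.05, followed by Vha68-2 at 0.18 ± 0.03, and Vha55 and Vha100-5 at 0.16. With SAMC-null replicates and P223L replicates left out in turn, 5 to 11 members were higher, beside 2274 to 2521 of all genes. Of the 9 higher calls, that of VhaAC39-2 was lost in 8 of these fits. The call of Vha13 was lost in 5, that of VhaM8.9 in 4 and that of VhaAC45 in 2. All of these were also lost in the joint fit of the 4 groups (limma, adjusted p from 0.0656 to 0.114). Of the 9 higher members, 7 turn lower when libraries are set to equal sums, and Vha100-4 and VhaAC39-2 stay higher without passing. Among those that turn, Vha100-2, Vha100-5, Vha55 and Vha68-2 do not pass either. The levels of VhaM9.7-a, Vha36-3 and Vha14-1 did not pass the test on the deposited scale (adjusted p = 0.0787, 0.178 and 0.0797). With equal sums VhaM9.7-a and Vha36-3 were called lower in P223L, by differences of -0.37 and -0.28.

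I172G and P223L, mild and severe single amino acid changes, differed in 21 of 28 members tested, 15 higher in I172G and 6 lower, beside 80.8% of all genes, 42.9% higher and 38% lower. Libraries did not overlap for 14 of the higher and 4 of the lower members, beside 70.6% of all genes (37.7% higher, 33% lower), and 7 members had a called change of at least 2-fold, beside 38.5% of all genes. Of these 7, 4 (Vha14-2, Vha16-3, Vha16-5 and Vha68-3) had at most 1 P223L library at 10 or more and were tested through I172G alone, so they had to be higher there. The same 4 are among the 15 higher and the 14 without overlap, and these counts are no support. The 6 lower ones were VhaM9.7-a (log2 -2.17 ± 0.14), Vha36-3 (-0.54 ± 0.07), Vha100-4 (-0.51 ± 0.05), Vha68-1 (-0.40 ± 0.05), VhaM9.7-c (-0.31 ± 0.09) and Vha100-5 (-0.25 ± 0.06), and all 6 remained lower with equal sums. The higher ones were led among abundant members by Vha14-1 (0.68 ± 0.06) and VhaM9.7-b (0.49 ± 0.07). With equal sums Vha14-1 stayed higher and called at 0.24, while VhaM9.7-b was at 0.046 and lost its call (adjusted p = 0.504). For 7 of the 15 the direction reverses under equal sums, where the split was 7 higher and 19 lower. Among the members that reverse, VhaPPA1-1 is at -0.0507 and not called. Over all 12029 genes the split with equal sums was 3405 higher and 6775 lower.

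Of 6 genes for assembly and control of the pump, 3 rose and 1 fell in P223L and 3 rose and 2 fell in SAMC-null on the deposited scale, where 78.7% and 81.7% of all genes were called. A list of 6 with 4 and 5 called is near that background. In I172G their median log2 fold change was -0.08. Rbcn-3A, whose product assists assembly of the pump, rose by 0.28 ± 0.05 in P223L and 0.24 ± 0.05 in SAMC-null, and mtd by 0.32 ± 0.08 and 0.43 ± 0.07. Mitf, a transcription factor known to control V-ATPase genes in the fly, rose by 0.10 ± 0.04 in P223L (adjusted p = 0.034). CG5969, a homologue of a yeast V0 assembly factor, fell by 0.31 ± 0.09 and 0.47 ± 0.10. With equal sums 5 of the 6 are called higher in both severe lines and none lower, so the calls of CG5969 as lower are lost. Over all genes 6673 of 12208 are called higher on that scale in P223L and 7420 of 12252 in SAMC-null.

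Of 16 ion transporters and related enzymes that work beside the pump in epithelia, 5 rose and 7 fell in P223L, and 7 rose and 6 fell in SAMC-null, beside 78.7% and 81.7% of all genes called, shares that those of the list are near. With equal sums the split was 10 to 3 and 12 to 3. Over all genes it was then 6673 to 3509 of 12208 and 7420 to 3296 of 12252. Ncc69, a sodium, potassium and chloride cotransporter, fell by 1.60 ± 0.05 in P223L and 1.70 ± 0.05 in SAMC-null, while nrv3, a sodium pump subunit of the nervous system, rose by 2.15 ± 0.09 and 2.17 ± 0.08. In I172G 5 of the 16 rose and 1 fell, where 14.6% of all genes were called higher and 17.6% lower. Those that rose included ClC-c (0.37 ± 0.05) and ClC-b (0.39 ± 0.06), of the ClC family of chloride transport proteins. Also among them were the sodium and proton exchangers Nhe3 (0.36 ± 0.06) and Nhe1 (0.37 ± 0.07). Over all genes 32.2% were called in I172G (17.6% lower), 78.7% in P223L (42.4% lower) and 81.7% in SAMC-null (43.5% lower). Of 12 Malpighian tubule markers 4 fell in I172G and 7 in each severe line, with 2 higher in each severe line. Counted in both directions, the markers called are near the shares of all genes. With equal sums 5 were higher and 6 lower in P223L, and 6 higher and 4 lower in SAMC-null. On the deposited scale their sums were 20753 to 22048 in control, 16164 to 18521 in I172G, 10280 to 11821 in P223L and 13575 to 14604 in SAMC-null.

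Lysosomal genes, for parts of an organelle that the pump acidifies, mostly fell in the severe lines on the deposited scale. Of 23, 17 fell and 3 rose in P223L with a median of -0.73, and 18 fell and 4 rose in SAMC-null with a median of -0.75. Over all genes 42.4% and 43.5% were called lower, with a median of -0.06 in each. With equal sums the counts were 12 lower and 7 higher in P223L and 12 lower and 9 higher in SAMC-null. Over all genes they were then 3509 lower and 6673 higher of 12208, and 3296 lower and 7420 higher of 12252. Hexo1, a hexosaminidase, went from 5902 ± 574 in control to 1653 ± 55.4 in P223L and 1468 ± 43.3 in SAMC-null, and the cysteine protease gene 26-29-p from 6965 ± 345 to 1831 ± 104 and 1503 ± 52.3. In I172G 14.6% of all genes were called higher and 17.6% lower. In that line 8 of the 23 lysosomal genes rose and 5 fell, while leaving out control replicate 4 gave 9 that rose and 8 that fell. Npc1a, a cholesterol transporter, rose by 0.42 ± 0.06, and Gba1a, a glucocerebrosidase, fell by 2.55 ± 0.20. Of 12 genes of the TORC1 growth pathway that signals from the lysosome, 4 rose and 2 fell in P223L. In SAMC-null 6 rose and 3 fell. These are no larger shares than the 78.7% and 81.7% of all genes called. With equal sums 10 and 12 rose, where 6673 of 12208 and 7420 of 12252 genes did. In both lines the genes that rose included Rheb (0.94 ± 0.06 and 1.00 ± 0.05), the activator of TORC1, and Sesn (0.86 ± 0.06 and 1.10 ± 0.06), which holds it back.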

How the data were processed

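RNA sequencing of whole larvae gave 20 libraries, grouped by the labels. The submitters' processing notes name Salmon 0.11.3, DESeq2 1.26.0 and the BDGP6 build. In the 3 deposited tables there is a signal per gene and library, a read count normalised by the authors, whose control columns differ between tables by at most 0.005. They also hold the authors' log2 fold change, its standard error, a score (the test statistic), a p-value and its adjusted value, the last tested against a 2-fold change. The read strand used in counting is not given in the sources used here.

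Members and gene lists were chosen with earlier results of these data known. Of the 33 members, 29 matched Ensembl release 115 (BDGP 6.54) by identifier and 4 by symbol, and coordinates and exon lengths come from it. Levels per kb divide by the union of exons.

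Each comparison was fitted on its 10 libraries with limma 3.58.1 (R 4.3.3, intensity trend) on log2(value + 1). A gene was tested where 5 or more of the 10 libraries reached a value of 10, in two-sided tests with Benjamini-Hochberg adjustment over all of them and a threshold of 0.05. Fold changes and tests are given for members past the threshold. Of each other list, up to 4 genes with the smallest adjusted p in a comparison may be named. No set test was made. The fit was tested on simulated data. The values are not whole counts, so no count test was used.

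The alternatives were a pseudocount of 0.5 or 4, a filter of 50 or none, equal library sums, rescaling by median ratios, a block for replicate number, 1 joint fit of the 4 groups, the adjusted p of the authors, and each library left out in turn, where 4 of the 9 remaining libraries had to reach 10. Leaving control replicate 4 out of the list counts was added after seeing the data. Tables were made with Python 3.11.15, pandas 2.3.3 and numpy 2.4.6. No library was left out of the results as first given.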

Additional observations from a re-analysis of the deposited data

Results flagged for a closer look

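In 130 groups of 5 libraries, 1 library lay apart from the other 4 of its group in 5 cases, where chance gives about 1 in 20 groups. Vha44 was at 9177 in control replicate 3 against 8492 to 8551 in the other controls. Vha100-5 was at 5974 in I172G replicate 3 against 4888 to 5203 in the others, and it still lay below every control library. The remaining 3 concern low copies near 0. Vha14-2 was at 8.23 in P223L replicate 3 against 0 to 1.52, Vha16-3 at 3.04 in SAMC-null replicate 2 with the others at 0, and Vha16-2 at 0.831 in SAMC-null replicate 5 with the others at 0.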

How the results depend on the processing

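Results are read as called or not at an adjusted p of 0.05. Of 93 member calls, 38 changed sign when libraries were set to equal sums, 5 kept the sign but lost the call and 50 kept both. Some of those that changed sign are near 0 and not called on that scale, and these are named below. No call changed sign under pseudocounts of 0.5 or 4, no filter, a filter of 50, median-ratio rescaling, the replicate block, 1 fit over all 4 groups, the authors' adjusted p or any library left out. The direction of small changes of abundant genes depends on the scale of the libraries, and the depth of the low copies, often under 10, limits what can be said of them.

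With equal sums the log2 fold changes in P223L against control became 0.22 for Vha100-2, 0.19 for Vha100-4, 0.20 for Vha100-5, 0.032 for Vha13, 0.21 for Vha26, 0.28 for Vha36-1, 0.084 for VhaAC39-1, 0.11 for VhaAC45, 0.024 for VhaM8.9, 0.0021 for VhaPPA1-1 and 0.17 for VhaSFD. In SAMC-null they became 0.28 for Vha100-2, 0.089 for Vha100-4, 0.23 for Vha100-5, 0.13 for Vha13, 0.32 for Vha26, 0.45 for Vha36-1, 0.46 for Vha55, 0.35 for Vha68-2, 0.22 for VhaAC39-1, 0.22 for VhaAC45, 0.12 for VhaM8.9, 0.12 for VhaPPA1-1 and 0.35 for VhaSFD. For P223L against SAMC-null they became -0.062 for Vha100-2, -0.033 for Vha100-5, -0.10 for Vha13, -0.0353 for Vha55, -0.0141 for Vha68-2, -0.11 for VhaAC45 and -0.0950 for VhaM8.9. For I172G against P223L they became -0.27 for Vha100-1, -0.19 for Vha13, -0.28 for Vha36-1, -0.20 for VhaAC45, -0.10 for VhaM8.9, -0.0507 for VhaPPA1-1 and -0.18 for VhaSFD. Not called at these values were Vha13, VhaAC39-1, VhaAC45, VhaM8.9 and VhaPPA1-1 in P223L and Vha100-4 in SAMC-null. Nor were Vha100-2, Vha100-5, Vha55 and Vha68-2 between the severe lines, or VhaPPA1-1 between I172G and P223L.

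With equal sums, counts of members higher and lower were 15 and 9 in P223L (abundant 13 and 2) and 19 and 7 in SAMC-null (abundant 17 and 0). They were 0 and 16 for P223L against SAMC-null and 7 and 19 for I172G against P223L, and 6 abundant members were lower in I172G. The counts of 0 by limma among these were also 0 at an unadjusted p under 0.05. Over all genes the counts were 6673 and 3509 in P223L and 7420 and 3296 in SAMC-null. They were 1170 and 5803 for P223L against SAMC-null and 3405 and 6775 for I172G against P223L. In I172G 2294 of 12253 genes were lower on that scale. With the authors' adjusted p, from a test beyond 2-fold, 0 members were higher and 0 lower in I172G, and 1 was higher and 10 lower in each severe line, all low copies. In I172G 6 abundant members were lower in 1 fit over all groups, and 3 low copies were lower with the filter of 50, with the replicate block and in the joint fit. In P223L 11 low copies were lower with no filter and 2 with the filter of 50, and in SAMC-null 2 with the filter of 50. In the joint fit 5 members were higher in P223L than in SAMC-null. Fewer genes can be tested with the stricter filter, and for the other changes the cause was not tested.

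With 1 library left out, 3 to 12 members and 0 to 9 low copies were lower in I172G, beside 1354 to 2966 of all genes. Some low copies there were tested almost only through control and had to be lower. In P223L 5 to 11 members were higher than in SAMC-null, beside 2274 to 2521 of all genes. A total of 12 member calls were lost without at least 1 library. Libraries of equal number correlated in their deviations by -0.245 to 0.109, so the numbers do not pair libraries, and each comparison had at most 1 number whose library correlated best with its own. With the replicate block 5 member calls were lost, with adjusted p of 0.0742 for Vha100-3 and 0.0571 for Vha68-3 in I172G, 0.0777 for Vha36-1 in P223L, 0.0721 for VhaAC39-2 between the severe lines and 0.0622 for Vha36-1 between I172G and P223L.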

Other observations

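CG31030, named VhaAC45RP in the annotation (3R:30164692-30166419) and a relative of the accessory subunit VhaAC45, falls outside the symbol rule and was chosen after its values were seen. It had 107 ± 18.0 normalised counts in control (SD, n = 5), 103 ± 11.6 in I172G, 530 ± 15.7 in P223L, and SAMC-null stood at 713 ± 41.4. The severe libraries lay between 509 and 763 and all others below 123. The log2 fold change was 2.32 ± 0.12 (SE) in P223L (limma, adjusted p = 2.63e-09) and 2.75 ± 0.12 in SAMC-null (adjusted p = 5.15e-10), and P223L was lower than SAMC-null by a difference of -0.43 ± 0.05 (adjusted p = 4.67e-06). VhaAC45 itself fell in both severe lines on the deposited scale, a direction that equal sums reverse, without a call in P223L.

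Within the genome, 5 pairs of neighbouring pump genes lie close together. Vha68-2, Vha68-3 and Vha68-1 lie in a row on 2L, with 178 and 19476 bases between them, and they had 27053, 192 and 924 normalised counts in control. Vha68-1 rose in both severe lines, on the deposited scale and with equal sums. Vha68-3 was lower in both, but it was tested only through its control level, so its direction is no support. Vha100-4 and Vha100-2 lie 517 bases apart on the same strand of 3R, and VhaPPA1-2 and VhaPPA1-1 2052 bases apart. Vha16-3 and Vha16-2, 985 bases apart on 3L, are both low copies and both listed at 0 in all P223L libraries. The X chromosome holds 2 of the abundant members.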
